A study of Mus musculus with 8 samples.

Results

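Genes of the interferon response and of antigen presentation were followed in hippocampal RNA from mice labelled KO or WT for Pyk2, a tyrosine kinase that responds to calcium and is encoded by Ptk2b. The list holds 31 genes, chosen by function and matched by symbol among the 55188 genes of each table: 4 of class II presentation, 10 of class I presentation and 17 of interferon signalling and antiviral defence. It was chosen with earlier results of these data known.

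The mice were C57BL/6 and had not yet undergone fear conditioning. The labels call all of them, WT included, transgenic. How Pyk2 was disrupted is not stated in them, nor are age and sex. There were 8 libraries, 2 technical replicates each of KO1, KO2, WT1 and WT2. Each of these 4 numbers was taken as an animal (n = 2 per group), although no label calls them separate mice, and p-values speak only for the spread among them.

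Values are FPKM, fragment counts scaled by transcript length and sequencing depth, so levels can be compared between genes. Between 26508 and 27903 genes were above 0 per library, and the number of reads is unknown. The targeted gene went against the label: Ptk2b averaged 273 ± 6.33 FPKM in KO and 217 ± 20.98 FPKM in WT (SD, n = 2 each), with a difference of 0.34 on the log2(FPKM + 1) scale (SE 0.072, limma adjusted p = 0.158). KO below therefore means the libraries labelled KO. The 8 hippocampal neuron markers, among them Prox1 and Camk2a, were present throughout and summed to 2091 FPKM in KO1 and 2006 FPKM in KO2, against 1845 FPKM in WT1 and 1754 FPKM in WT2.

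Interferons bind receptors at the cell surface, and Jak kinases then activate transcription factors, Stat2 and Irf9 among them, that act at the interferon-stimulated response element (ISRE) in promoters of antiviral genes. MHC class I molecules, a heavy chain with B2m, display peptides that the proteasome cuts and the Tap transporter moves into the endoplasmic reticulum. MHC class II molecules display peptides from proteins a cell has taken up, and in healthy brain they are known mainly from macrophages and dendritic cells at its borders.

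Promoters were searched for 3 motifs known from these pathways. RefSeq windows of the 250 bases before the start of transcription (build GRCm38.p6) were found for 24 of the 31 members. The ISRE was searched as GAAANNGAAA and the CCAAT box, known as the Y box of class II promoters, as CCAAT. The interferon gamma-activated site (GAS) was searched as TTCNNNGAA, and all 3 on both strands. Windows of 6 members on which the results turn are shown, with every ISRE and CCAAT match in capitals, to set class II, class I and antiviral promoters side by side. They lie at chr17:34287824-34288073 (minus strand) for H2-Aa, chr17:34305617-34305866 (plus strand) for H2-Eb1, chr2:122147437-122147686 (plus strand) for B2m, chr8:71537473-71537722 (minus strand) for Bst2, chr19:34640639-34640888 (plus strand) for Ifit1 and chr19:34583279-34583528 (plus strand) for Ifit3.

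H2-Aa: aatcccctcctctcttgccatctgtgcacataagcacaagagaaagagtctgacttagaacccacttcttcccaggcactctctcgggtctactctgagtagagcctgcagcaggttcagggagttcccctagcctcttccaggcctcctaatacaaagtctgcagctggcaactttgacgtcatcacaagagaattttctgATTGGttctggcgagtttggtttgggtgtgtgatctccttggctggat

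H2-Eb1: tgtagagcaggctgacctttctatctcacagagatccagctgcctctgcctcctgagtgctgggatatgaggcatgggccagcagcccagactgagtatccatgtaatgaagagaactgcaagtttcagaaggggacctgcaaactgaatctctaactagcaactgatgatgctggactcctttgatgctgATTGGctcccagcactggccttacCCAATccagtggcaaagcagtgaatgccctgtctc

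B2m: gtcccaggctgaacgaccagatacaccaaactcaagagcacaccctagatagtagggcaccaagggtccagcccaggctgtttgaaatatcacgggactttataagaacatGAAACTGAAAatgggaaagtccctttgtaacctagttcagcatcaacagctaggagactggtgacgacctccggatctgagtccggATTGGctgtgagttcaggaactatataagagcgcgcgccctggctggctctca

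Bst2: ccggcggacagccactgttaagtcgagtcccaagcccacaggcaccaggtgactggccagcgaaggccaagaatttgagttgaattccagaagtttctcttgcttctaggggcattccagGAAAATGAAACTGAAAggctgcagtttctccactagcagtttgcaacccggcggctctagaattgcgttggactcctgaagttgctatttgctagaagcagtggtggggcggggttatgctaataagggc

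Ifit1: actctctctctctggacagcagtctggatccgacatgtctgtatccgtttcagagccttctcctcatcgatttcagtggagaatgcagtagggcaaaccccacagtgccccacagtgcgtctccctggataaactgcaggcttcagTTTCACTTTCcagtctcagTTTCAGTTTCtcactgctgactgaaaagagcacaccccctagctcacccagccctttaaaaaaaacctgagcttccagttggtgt

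Ifit3: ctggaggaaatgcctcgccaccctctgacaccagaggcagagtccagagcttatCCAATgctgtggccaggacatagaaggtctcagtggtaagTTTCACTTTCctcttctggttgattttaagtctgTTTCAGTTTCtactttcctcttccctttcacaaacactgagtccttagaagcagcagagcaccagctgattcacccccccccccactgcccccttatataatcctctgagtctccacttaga

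An ISRE match stood in 6 of the 14 antiviral genes with a window (Bst2, Ifit1, Ifit3, Ifitm2, Isg15 and Stat2), in 2 of 8 class I genes (B2m and H2-T23) and in 0 of 2 class II genes, against 3.46% of all 27025 genes with a window. Ifit1 held 2 matches, beginning 104 and 85 bases before the start, and Ifit3 held 2 at 156 and 122 bases. Those of Bst2, at 130 and 124 bases, overlap. The CCAAT box stood in 2 of 2 class II genes, 7 of 8 class I genes and 5 of 14 antiviral genes, against 37.49% of all genes with a window. It began 48 bases before the start in H2-Aa and 59 and 35 bases before it in H2-Eb1. The GAS stood in 3 of 14 antiviral genes (Bst2, Ifit2 and Irf1), 1 of 8 class I genes (Psmb8) and 0 of 2 class II genes, against 8.13% of all genes with a window. In Bst2 it began 136 bases before the start and overlaps the first ISRE match. These matches describe letters and not bound sites.

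Class II genes were at 34.1% to 38.9% of the WT level in KO, and both KO animals were below both WT animals for all 4, as they were for 30.7% of all genes tested, but none passed the test over all genes. Cd74 is the invariant chain, which guides class II molecules to the compartment where they load peptide (ENSMUSG00000024610, chromosome 18). It was at 1.899 and 1.55 FPKM in KO1 and 1.06 and 1.297 FPKM in KO2, against 3.42 and 4.27 FPKM in WT1 and 4.08 and 3.18 FPKM in WT2. Every KO library lay below every WT library, as for 13% of all genes tested. Cd74 averaged 1.45 ± 0.388 FPKM in KO and 3.73 ± 0.152 FPKM in WT (SD, n = 2 each). The difference, KO minus WT on the log2(FPKM + 1) scale, was -0.96 (standard error, SE, 0.13; limma adjusted p = 0.0988), short of the threshold of 0.05. Without KO2 it was -0.80 and passed, and the adjusted p ran from 0.0463 to 0.397 over all alternatives.

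The 3 genes of class II chains lie together on chromosome 17 (mm10). H2-Aa is the alpha chain of the I-A molecule (ENSMUSG00000036594, chromosome 17, 34282744 to 34287823). It was at 0.664 and 0.593 FPKM in KO1 and 0.406 and 0.471 FPKM in KO2, against 1.38 and 1.603 FPKM in WT1 and 1.84 and 1.43 FPKM in WT2, with a difference of -0.74 (SE 0.099, limma adjusted p = 0.0993). H2-Ab1 is the beta chain of I-A (ENSMUSG00000073421, chromosome 17, 34257689 to 34269419). It was at 0.579 and 0.546 FPKM in KO1 and 0.374 and 0.342 FPKM in KO2, against 1.46 and 1.099 FPKM in WT1 and 1.74 and 1.07 FPKM in WT2, with a difference of -0.68 (SE 0.10, limma adjusted p = 0.104). In both genes the libraries of the groups did not overlap, and KO2 was the lower KO animal. H2-Eb1 is the beta chain of the I-E molecule (ENSMUSG00000060586, chromosome 17, 34305867 to 34316674). It was at 0.797 and 0.914 FPKM in KO1 and 0.372 and 0.598 FPKM in KO2, against 1.41 and 1.45 FPKM in WT1 and 2.05 and 1.98 FPKM in WT2, with a difference of -0.71 (SE 0.16, limma adjusted p = 0.174). Here too no KO library reached a WT library.

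**Figure D1:**
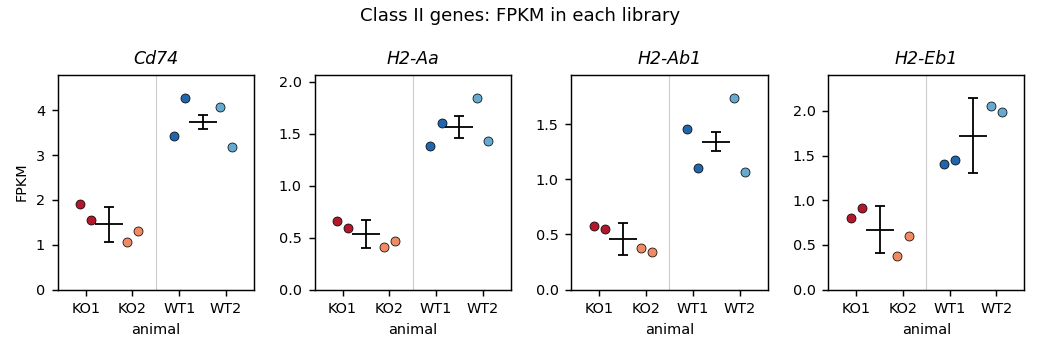
FPKM of the 4 class II genes in each library (points, 2 technical replicates per animal) of KO1, KO2, WT1 and WT2, with the mean and SD of the 2 animals of each group (black bars). All KO libraries lie below all WT libraries, as for Cd74 at 1.06 to 1.899 FPKM in KO and 3.18 to 4.27 FPKM in WT.

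The levels were low and their counting error wide. The deposited 95% interval of H2-Ab1 was 0.0391 to 0.646 FPKM in the second library of KO2 and 1.03 to 1.89 FPKM in the first of WT1. For Cd74, the most abundant of the 4, it was 0.926 to 1.67 FPKM and 2.87 to 3.97 FPKM in the same libraries. The median difference of the 4 genes was -0.72, against -0.022 over all 16667 genes tested, and -1.36 with 0.1 in place of 1 added to the FPKM. At most 0.514% of the 50-base stretches of any of these 4 genes also occur in transcripts of another gene.

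Of 11 other class II genes 6 were tested, 0 were called, and 2 were lower at an unadjusted p under 0.05, as were 11.4% of all genes. H2-DMb1, a chain of the molecule that exchanges class II peptides, averaged 0.806 ± 0.0477 FPKM in KO and 1.49 ± 0.139 FPKM in WT, a difference of -0.46 (SE 0.086, limma adjusted p = 0.128). Rfxank, a subunit of the factor that binds class II promoters, averaged 3.797 ± 0.192 FPKM in KO and 4.67 ± 0.0601 FPKM in WT, a difference of -0.24 (SE 0.068, limma adjusted p = 0.228). The level of its partner subunit Rfxap was 17.1 ± 1.67 FPKM in KO and 16.4 ± 0.991 FPKM in WT, with a difference of 0.056 (95% interval -0.16 to 0.27). Ciita, the main activator of class II genes, was too low to test, at 0.272 FPKM in KO1 and 0.3401 FPKM in KO2, against 0.359 FPKM in WT1 and 0.301 FPKM in WT2.

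Among class I genes Tapbp, Tap2 and H2-K1 had every KO library below every WT library, as 13% of all genes did. Libraries of the groups overlapped for H2-D1, H2-T23 and B2m, and none passed the test over all genes. KO1 exceeded KO2 by 0.41 on the log2(FPKM + 1) scale for H2-D1, 0.51 for H2-T23, 0.23 for B2m and 0.20 for H2-K1. Tapbp encodes tapasin, which holds class I molecules at the transporter (ENSMUSG00000024308, chromosome 17, 33915899 to 33929292). It was at 7.92 and 8.35 FPKM in KO1 and 8.66 and 8.02 FPKM in KO2, against 11.5 and 10.5 FPKM in WT1 and 10.8 and 10.1 FPKM in WT2. The groups did not overlap, and the difference was -0.34 (SE 0.054, limma adjusted p = 0.109). Its exons share 904 of their 3628 bases with Gm19412 on the opposite strand. Since no strand setting is known, reads of the 2 genes cannot be told apart within that overlap.

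Tap1 and Tap2 form the transporter. Tap2 (ENSMUSG00000024339, chromosome 17, 34203527 to 34216321) was at 2.28 and 2.64 FPKM in KO1 and 3.01 and 2.57 FPKM in KO2, against 3.52 and 3.63 FPKM in WT1 and 4.41 and 3.33 FPKM in WT2. No KO library reached a WT library, and the difference was -0.38 (SE 0.083, limma adjusted p = 0.161). Tap1 (ENSMUSG00000037321, chromosome 17, 34187553 to 34197225) was at 0.968 and 0.793 FPKM in KO1 and 0.903 and 0.721 FPKM in KO2, against 1.58 and 1.04 FPKM in WT1 and 1.27 and 0.966 FPKM in WT2. The first KO1 library lay just above the second WT2 library, so the groups touched. The difference was -0.26 (SE 0.088, limma adjusted p = 0.277), -0.16 after quantile normalization and -0.47 with 0.1 FPKM added. Tap2 shares 533 exonic bases with Gm15821 and Tap1 shares 212 with Psmb9, both on opposite strands.

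H2-K1 and H2-D1 are the classical heavy chains. H2-K1 (ENSMUSG00000061232, chromosome 17, 33996017 to 34000347) was at 16.2 and 19.3 FPKM in KO1 and 13.2 and 17.3 FPKM in KO2, against 24.4 and 21.5 FPKM in WT1 and 21.8 and 20.1 FPKM in WT2, with a difference of -0.39 (SE 0.087, limma adjusted p = 0.165). The difference was -0.62 with the first technical replicates alone and -0.18 with the second. Its groups did not overlap, but its technical replicates in KO2 had separate deposited intervals, the only such pair of 124 among the members. H2-D1 (ENSMUSG00000073411, chromosome 17, 35262730 to 35267499) was at 14.9 and 14.6 FPKM in KO1 and 10.7 and 10.9 FPKM in KO2, against 16.4 and 15.7 FPKM in WT1 and 13.96 and 13.6 FPKM in WT2. KO1 lay between the WT animals and KO2 below them, with a difference of -0.22 (SE 0.15, limma adjusted p = 0.5401). H2-T23, the heavy chain of the nonclassical molecule Qa-1, averaged 3.74 FPKM in KO1 and 2.33 FPKM in KO2, against 4.15 FPKM in WT1 and 4.03 FPKM in WT2. Similar heavy chains share reads: 9.63% of 50-base stretches of H2-K1, 12.8% of H2-D1 and 14.5% of H2-T23 occur in other genes.

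B2m, the light chain of class I and the most abundant member (ENSMUSG00000060802, chromosome 2, 122147686 to 122153083), was at 77.4 and 78.9 FPKM in KO1 and 66.1 and 67.3 FPKM in KO2, against 84.8 and 82.01 FPKM in WT1 and 78.6 and 78.7 FPKM in WT2. KO2 lay below all other libraries while KO1 overlapped WT2. The difference was -0.16 (SE 0.083, limma adjusted p = 0.415), and without KO2 it was -0.051. The immunoproteasome subunits, which interferon induces, overlapped between groups. Psmb8 averaged 1.88 ± 0.0228 FPKM in KO and 2.02 ± 0.0722 FPKM in WT, a difference of -0.066 (95% interval -0.26 to 0.12). Psmb9 averaged 0.865 ± 0.113 FPKM in KO and 0.821 ± 0.0407 FPKM in WT, a difference of 0.033 (95% interval -0.20 to 0.26). Nlrc5, an activator of class I genes, was the 1 member too low to test, at 0.228 FPKM in KO1 and 0.0807 FPKM in KO2, against 0.507 FPKM in WT1 and 0.176 FPKM in WT2.

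**Figure D2:**
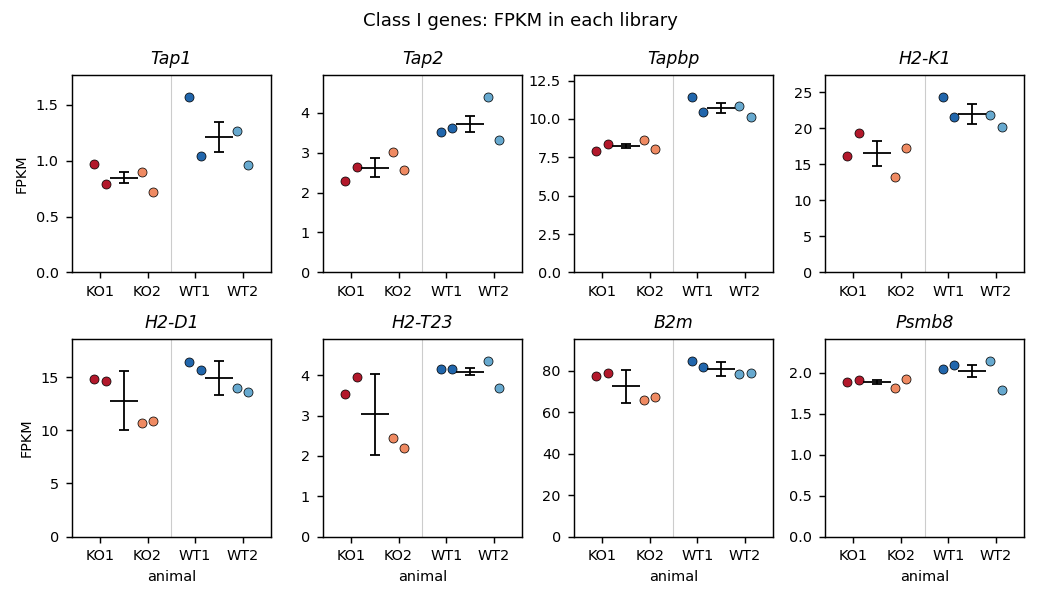
FPKM of 8 class I genes in each library (points) of KO1, KO2, WT1 and WT2, with the mean and SD of the 2 animals of each group (black bars). Tapbp and Tap2 are low in both KO animals, while H2-D1, H2-T23 and B2m are lowest in KO2, as for B2m at 66.1 and 67.3 FPKM.

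The median difference of the 9 class I genes tested was -0.26, and without KO2 it was -0.10. Of 14 other class I pathway genes 11 were tested, 0 were called, and 3 were lower at an unadjusted p under 0.05, against 11.4% of all genes. The proteasome activator subunit Psme1 averaged 25.95 ± 0.965 FPKM in KO and 30.6 ± 1.51 FPKM in WT, and its partner Psme2 averaged 15.3 ± 0.686 FPKM in KO and 17.8 ± 0.514 FPKM in WT. The nonclassical heavy chain H2-Q4 averaged 1.303 ± 0.293 FPKM in KO and 1.96 ± 0.0954 FPKM in WT. Their differences were -0.23, -0.21 and -0.37, against a median of -0.088 over the 11 genes.

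Antiviral genes showed 2 patterns, one by label and one by animal, and none passed the test over all genes. Differences ran from -0.82 for Bst2 to 0.18 for Oasl2. Their median over 17 genes was -0.13, with -0.29 without KO1, -0.054 without KO2, -0.080 without WT1 and -0.037 after quantile normalization.

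Bst2, Ifi27, Ifitm2 and Ifitm3 were low in both KO animals. All their KO libraries lay below all WT libraries, as for 13% of all genes tested. Bst2, or tetherin, holds budding virus at the cell surface (ENSMUSG00000046718, chromosome 8, 71534255 to 71537456). It was at 3.27 and 3.82 FPKM in KO1 and 2.01 and 2.48 FPKM in KO2, against 5.45 and 5.42 FPKM in WT1 and 6.33 and 5.96 FPKM in WT2, and the KO mean was 49.9% of the WT mean, with a difference of -0.82 (SE 0.17, limma adjusted p = 0.14999). Ifi27 is a mitochondrial protein gene induced by type I interferon (ENSMUSG00000064215, chromosome 12, 103434211 to 103440239). It was at 24.96 and 27.1 FPKM in KO1 and 31.1 and 30.5 FPKM in KO2, against 42.96 and 41.4 FPKM in WT1 and 53.1 and 55.3 FPKM in WT2, with a difference of -0.74 (SE 0.14, limma adjusted p = 0.128). KO2 was the lower KO animal for Bst2 and KO1 for Ifi27.

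The Ifitm proteins block the fusion of viruses with cell membranes. Ifitm2 (ENSMUSG00000060591, chromosome 7, 140954837 to 140955987) was at 10.3 and 8.67 FPKM in KO1 and 10.2 and 10.3 FPKM in KO2, against 13.04 and 15.6 FPKM in WT1 and 16.8 and 17.1 FPKM in WT2, with a difference of -0.61 (SE 0.092, limma adjusted p = 0.102). Ifitm3 (ENSMUSG00000025492, chromosome 7, 141009586 to 141010770) was at 13.3 and 12.3 FPKM in KO1 and 10.9 and 10.9 FPKM in KO2, against 17.5 and 15.01 FPKM in WT1 and 16.2 and 15.2 FPKM in WT2, with a difference of -0.41 (SE 0.084, limma adjusted p = 0.145). The level of Ifitm2 is uncertain, since 48.5% of its 50-base stretches occur in other transcripts, mostly of the overlapping Gm45717.

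Stat2, a transcription factor of the type I interferon response (ENSMUSG00000040033, chromosome 10, 128270559 to 128292849), was at 5.504 and 5.102 FPKM in KO1 and 5.17 and 5.42 FPKM in KO2, against 6.06 and 6.02 FPKM in WT1 and 6.59 and 5.503 FPKM in WT2. The highest KO library lay marginally above the lowest WT library, so the groups touched. The difference was -0.16 (SE 0.058, limma adjusted p = 0.295) and -0.095 after quantile normalization. Irf9, which binds the ISRE together with Stat2, averaged 3.08 ± 0.316 FPKM in KO and 3.48 ± 0.444 FPKM in WT. Irf1, a transcription factor induced by interferon gamma, averaged 3.43 ± 0.465 FPKM in KO and 3.65 ± 0.02298 FPKM in WT. Their differences had 95% intervals of -0.40 to 0.14 and -0.32 to 0.17.

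Several classical interferon-stimulated genes were instead high in KO1 and low in KO2 with WT between them, a pattern noticed after the values were seen. Ifit3 belongs to a family whose proteins bind viral RNA (ENSMUSG00000074896, chromosome 19, 34583531 to 34588731). It was at 5.83 and 6.103 FPKM in KO1 and 3.21 and 3.16 FPKM in KO2, against 5.47 and 5.53 FPKM in WT1 and 4.65 and 4.15 FPKM in WT2. Ifit1, of the same family, recognises RNA caps (ENSMUSG00000034459, chromosome 19, 34640871 to 34650009). It was at 1.23 and 1.34 FPKM in KO1 and 0.615 and 0.584 FPKM in KO2, against 1.04 and 1.004 FPKM in WT1 and 0.941 and 0.816 FPKM in WT2. All WT libraries of both genes lay between KO1 and KO2, and the group differences were -0.13 (SE 0.26) and -0.028 (SE 0.18).

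Usp18 is the protease that removes Isg15 and damps interferon receptor signalling (ENSMUSG00000030107, chromosome 6, 121245906 to 121270917). It was at 0.840 and 0.934 FPKM in KO1 and 0.241 and 0.2702 FPKM in KO2, against 0.533 and 0.519 FPKM in WT1 and 0.661 and 0.515 FPKM in WT2. Oasl2 is of the oligoadenylate synthetase family (ENSMUSG00000029561, chromosome 5, 114896936 to 114912234). It was at 2.77 and 3.19 FPKM in KO1 and 1.56 and 1.09 FPKM in KO2, against 1.97 and 1.63 FPKM in WT1 and 1.45 and 1.66 FPKM in WT2. KO1 exceeded every WT library for both, while KO2 lay below every WT library for Usp18 and overlapped WT for Oasl2. Isg15, the ubiquitin-like modifier, averaged 2.32 FPKM in KO1 and 1.41 FPKM in KO2, against 1.95 FPKM in WT1 and 1.4998 FPKM in WT2. Irf7, a factor that amplifies type I interferon, averaged 1.12 FPKM in KO1 and 0.545 FPKM in KO2, against 1.0997 FPKM in WT1 and 0.876 FPKM in WT2. The deposited intervals of both KO1 libraries lay above those of both KO2 libraries for 7 members, 4 antiviral (Ifit1, Ifit3, Usp18 and Oasl2) and 3 of class I (H2-D1, H2-T23 and B2m), against 2.02% of all genes tested. The order was not particular to the members. It also held for 3 of 6 oligodendrocyte, 3 of 12 microglia and 2 of 8 hippocampal neuron markers. Among choroid plexus markers it held for 0 of 12, and among endothelium and pericyte markers for 0 of 12.

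**Figure D3:**
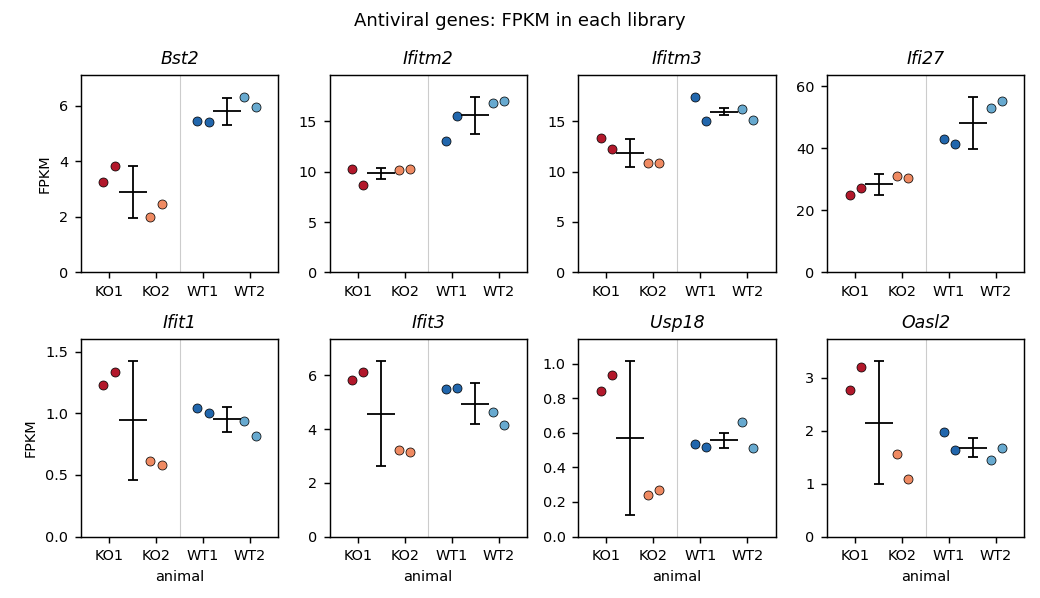
FPKM of 8 antiviral genes in each library (points) of KO1, KO2, WT1 and WT2, with the mean and SD of the 2 animals of each group (black bars). The top row (Bst2, Ifitm2, Ifitm3, Ifi27) is low in both KO animals. The bottom row (Ifit1, Ifit3, Usp18, Oasl2) has KO1 above and KO2 below WT by animal means. Ifit3 is at 5.97 FPKM in KO1 and 3.18 FPKM in KO2, and the KO2 libraries of Oasl2 overlap WT.

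By animal means 8 of 17 antiviral genes had KO1 above and KO2 below both WT animals (Irf7, Ifit1, Ifit2, Ifit3, Isg15, Usp18, Oasl2 and Rtp4), against 5.2% of all genes tested. In class I 1 gene (Psmb9) had this order, and in class II 0 did. Of the 12 microglia markers 5 had it too (Tmem119, Trem2, C1qa, C1qb and C1qc), and the part of these cells in the order was not tested. It held library by library for 3 members (Ifit1, Ifit3 and Usp18) and for 1 microglia marker (C1qa), against 0.528% of all genes. KO1 exceeded KO2 by over 0.5 on the log2 scale for 4 antiviral genes, against 0.828% of all genes, and WT1 exceeded WT2 by that much for 0, against 0.588%. No test applies to a contrast of single animals. Ifit3 shares 51.2% of its 50-base stretches with its neighbour Ifit3b, which averaged 2.99 FPKM in KO1 and 1.83 FPKM in KO2, against 2.89 FPKM in WT1 and 2.56 FPKM in WT2.

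The other antiviral genes had smaller differences or overlapping groups. Ifih1, which encodes the RNA sensor MDA5, averaged 0.746 ± 0.0519 FPKM in KO and 0.976 ± 0.0697 FPKM in WT, a difference of -0.18 (SE 0.084, limma adjusted p = 0.385). Xaf1, a gene of cell death, averaged 2.99 ± 0.462 FPKM in KO and 4.05 ± 0.80995 FPKM in WT, a difference of -0.34 (SE 0.14, limma adjusted p = 0.354). Ifit2 averaged 1.84 ± 0.157 FPKM in KO and 1.78 ± 0.04999 FPKM in WT, and Rtp4, a receptor chaperone, averaged 1.41 ± 0.272 FPKM in KO and 1.29 ± 0.101 FPKM in WT. Their 95% intervals of -0.18 to 0.24 and -0.21 to 0.35 included 0.

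**Figure D4:**
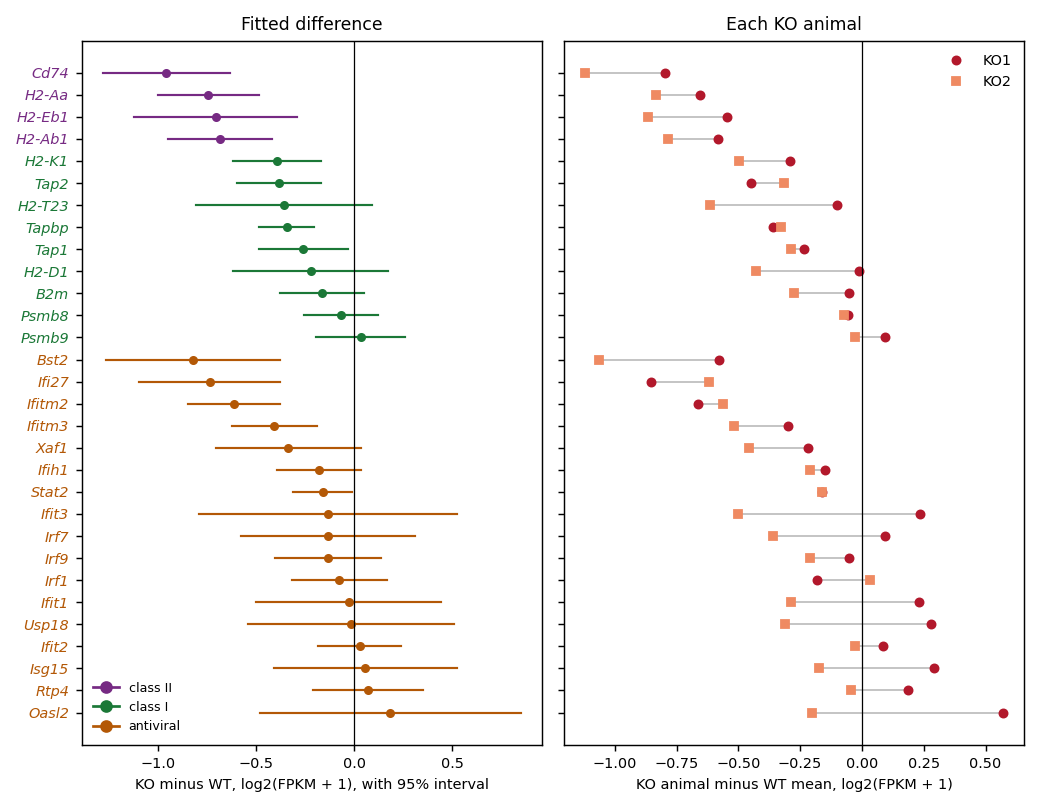
The 30 members tested, by class. Left, KO minus WT on the log2(FPKM + 1) scale with its 95% interval from limma, and right, KO1 (circles) and KO2 (squares) each minus the WT mean: class II genes lie below 0 in both animals, with fitted differences of -0.96 to -0.68, while genes such as Oasl2 and Usp18 have KO1 and KO2 on opposite sides of 0.

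Over all genes limma called 0 of the 30 members tested at an adjusted p under 0.05, against 0.054% of all genes, which were 9 genes lower and 0 higher. The 9 became 206 without KO2, and 0 without WT1 and without WT2. At an unadjusted p under 0.05, 13 members were lower and 0 higher, against 11.4% and 4.11% of all genes. They were the 4 class II genes, Tap1, Tap2, Tapbp, H2-K1, Bst2, Ifitm2, Ifitm3, Ifi27 and Stat2. Of all genes at that level 73.6% were lower, but 51.1% after median-of-ratios scaling and 53.3% after quantile normalization, where 12 and 11 members were lower.

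Both KO animals lay under both WT animals for 18 of the 30 members, against 30.7% of all genes tested, and over them for 0, against 18.4%. All KO libraries lay under all WT libraries for 12 members, against 13%, and over them for 0, against 7.11%. These 12 were the 4 class II genes, H2-K1, Tap2, Tapbp, Bst2, Ifitm2, Ifitm3, Ifi27 and Ifih1. The KO mean was lower for 25 members, against 58% of all genes, and the difference was under -0.5 for 7, against 2.93%. All 30 reached the minimum of 0.5 FPKM in at least 1 animal of each group.

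Of 40 other interferon-stimulated genes 26 were tested and 0 were called, with 3 lower and 1 higher at an unadjusted p under 0.05, against 11.4% and 4.11% of all genes, and a median difference of -0.12. Lgals3bp, a secreted glycoprotein that binds galectins, was at 7.17 and 6.396 FPKM in KO1 and 7.37 and 7.92 FPKM in KO2, against 13.7 and 14.4 FPKM in WT1 and 19.6 and 19.4 FPKM in WT2. Its KO mean was 43.01% of the WT mean, a difference of -1.10 (SE 0.16, limma adjusted p = 0.0996). Ifitm1, of the Ifitm family, averaged 2.79 ± 0.487 FPKM in KO and 4.72 ± 0.103 FPKM in WT, a difference of -0.60 (SE 0.11, limma adjusted p = 0.117). Ifi35 averaged 1.28 ± 0.124 FPKM in KO and 1.71 ± 0.115 FPKM in WT, a difference of -0.25 (SE 0.087, limma adjusted p = 0.284). By animal means 6 of the 26 had KO1 above and KO2 below both WT animals, against 5.2% of all genes.

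Markers of other cells differed between the same animals. The 12 choroid plexus markers, Ttr among them, summed to 289.9 FPKM in KO1 and 1243 FPKM in KO2, against 4256 FPKM in WT1 and 7523 FPKM in WT2. All 12 were lower in both KO animals than in both WT animals, as were 30.7% of all genes. The 8 meningeal fibroblast markers summed to 36.2 FPKM in KO1 and 66.6 FPKM in KO2, against 107 FPKM in WT1 and 179 FPKM in WT2. The 5 blood markers summed to 149 FPKM in KO1 and 158 FPKM in KO2, against 287 FPKM in WT1 and 317 FPKM in WT2. Both KO animals were below both WT animals for 5 of the 8 meningeal and all 5 blood markers. Of the 9 genes called over all genes, 2 were blood markers, the near-identical alpha globin genes Hba-a1 and Hba-a2, whose division of reads is uncertain. Their differences were -1.004 (SE 0.057, limma adjusted p = 0.0372) and -0.95 (SE 0.059, limma adjusted p = 0.0373). The 6 ependymal markers summed to 19.9 FPKM in KO1 and 34.7 FPKM in KO2, against 49.3 FPKM in WT1 and 41.6 FPKM in WT2. Both KO animals were below both WT animals for 5 of them, against 30.7% of all genes. KO1 had the lower sums of choroid plexus and meningeal markers, and KO2 was the lower KO animal for all 4 class II genes. Among the other members at an unadjusted p under 0.05, Ifi27, Ifitm2, Tap2 and Tapbp were lower in KO1 than in KO2. Bst2, Ifitm3, H2-K1, Tap1 and Stat2 were lower in KO2. The part of the cell type markers in the differences above was not tested. In whole tissue, fewer cells of a type and less RNA per cell cannot be told apart.

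Marker levels were low for border macrophages and for dendritic, B and T cells. Of these, border macrophages and dendritic cells are the class II cells named above. The 6 border macrophage markers, Mrc1 among them, summed to 2.64 FPKM in KO1 and 2.83 FPKM in KO2, against 3.03 FPKM in WT1 and 3.66 FPKM in WT2. Of these 3 could be tested. The 12 markers of dendritic, B and T cells summed to 2.16 FPKM in KO1 and 2.01 FPKM in KO2, against 2.15 FPKM in WT1 and 2.15 FPKM in WT2. Only Flt3 of these was tested, the other 11 stayed at or below 0.1497 FPKM in every animal, and the T cell genes Cd3e and Cd3d at or below 0.124 FPKM in every library. The 12 microglia markers summed to 247 FPKM in KO1 and 217 FPKM in KO2, against 224 FPKM in WT1 and 211 FPKM in WT2. Of these 0 had both KO animals below both WT animals, against 30.7% of all genes, and 4 had both above, against 18.4%. KO1 had the highest sums of microglia, oligodendrocyte and neuron markers and also the highest Ifit1, Ifit2 and Ifit3, and the part of cell makeup in that order was not tested.

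**Figure D5:**
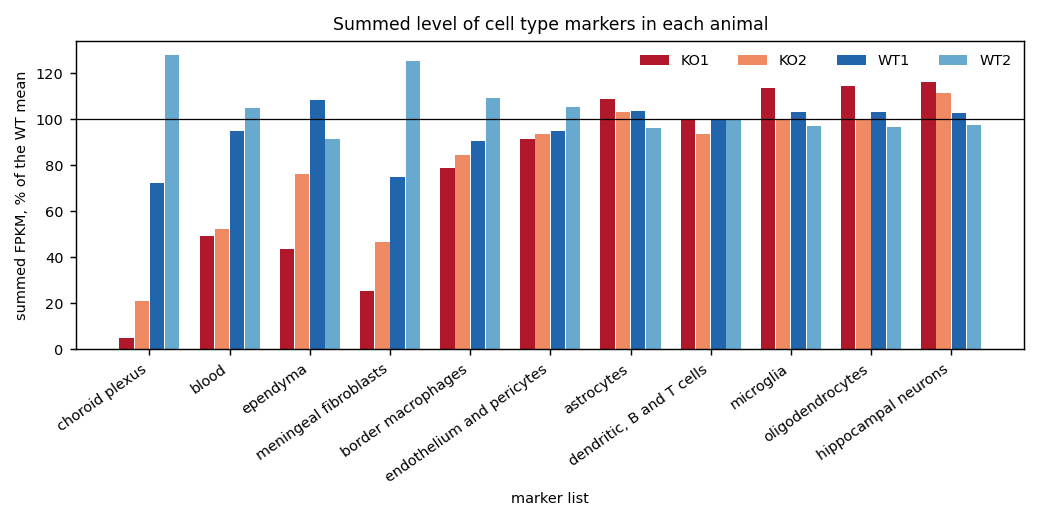
Summed FPKM of each cell type marker list in KO1, KO2, WT1 and WT2, as a percentage of the mean of the WT animals. Choroid plexus markers stand at 4.92% in KO1 and 21.1% in KO2, and microglia markers at 114% and 99.98%.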

How the data were processed

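Gene tables of 8 hippocampal libraries were used, with group and animal number taken from the titles. The authors deposited FPKM values, each with its confidence limits and status flag, per the file headers. Genome build mm10, Bowtie (version 1) and HISAT are named in the submitters' processing notes without a role. Which program computed FPKM, and with which annotation or strand setting, is not given in the sources used here. FPKM are not counts, so the read depth is unknown, and the confidence limits are taken to cover counting error only.

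The 53 repeated gene rows of each table were summed, and 12 values whose status was not OK were set to missing. Technical replicates were averaged per animal. Genes with at least 0.5 FPKM in 2 animals, the minimum used in earlier processing of these data, were tested as log2(FPKM + 1), which understates folds of low genes. The test was limma 3.58.1 (R 4.3.3) with a trended variance, KO minus WT, two-sided, adjusted over all genes by Benjamini-Hochberg at 0.05. It was run on simulated data whose planted changes lay in abundant genes and were larger than those of the members. How often it finds smaller changes, or changes in low genes such as class II, is unknown.

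Members and lists were chosen with earlier results of these data known. Library values are given for members with an unadjusted p under 0.05 and the 4 most abundant of each class, and values for up to 3 genes of smallest p in each further list. Ifit1, Ifit3, Usp18, Oasl2, Ciita, Ifit3b, Hba-a1, Hba-a2 and the named markers fall outside that rule and were chosen after their values were seen. Coordinates are those of the tables, counted from 1, and equal GENCODE M21 for 30 of 31 members (not Isg15). Shared stretches and overlaps come from GENCODE M21. Alternatives were other scalings, another pseudocount and minimum, no minimum, single technical replicates, the animal number as a block, and each animal left out.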

Additional observations from a re-analysis of the deposited data

How the results depend on the processing

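With each animal left out in turn, the genes called ranged from 0 to 206 lower and from 0 to 18 higher, and the members called from 0 to 1 lower (Cd74, without KO2). Over all genes tested the median difference was -0.011 without KO1, -0.035 without KO2, -0.025 without WT1 and -0.023 without WT2. The 0 genes called lower by limma without WT1 and without WT2 compare with 1174 and 1029 lower at an unadjusted p under 0.05. Median differences ranged from -0.32 to -0.10 for class I, -0.85 to -0.62 for class II and -0.29 to -0.054 for antiviral genes. A lone animal was assumed to vary like the other group.

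Calls over all genes were 0 lower with no minimum (2662 at an unadjusted p under 0.05 in limma), 17 lower and 2 higher with the first technical replicate, 29 and 6 with the second, and 1 higher with 0.1 FPKM added. Without the first library of KO1, an alternative chosen after seeing the data, they were 16 and 4. The class I median was -0.19 after quantile normalization, -0.38 with 0.1 FPKM added and -0.19 with the second technical replicate, and the class II median was -1.36 with 0.1 FPKM added. With the animal number as a replicate block, 176 genes were lower and 8 higher, with 3 members lower (Cd74, Ifitm2 and Ifi27). The pairs share only a number. Across all genes tested, KO1 minus KO2 and WT1 minus WT2 correlated at 0.107. The cause of these shifts was not tested.

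In 13 alternatives the 13 members at an unadjusted p under 0.05 kept their direction, and 11 other members turned at least once. After quantile normalization the difference was 0.043 for Psmb8, 0.029 for Irf1, 0.071 for Ifit1 and 0.073 for Usp18. Usp18 was at 0.0028 after median-of-ratios scaling, 0.047 with the second technical replicate and 0.0014 without the first library of KO1. Ifit1 was at 0.012 with the second technical replicate and Isg15 at -0.018 with the first. With an animal left out, the ranges that crossed 0 were -0.29 to 0.23 for Ifit1, -0.50 to 0.23 for Ifit3, -0.18 to 0.29 for Isg15, -0.31 to 0.28 for Usp18, -0.029 to 0.095 for Psmb9, -0.18 to 0.032 for Irf1, -0.028 to 0.085 for Ifit2, -0.20 to 0.57 for Oasl2, -0.045 to 0.19 for Rtp4 and -0.36 to 0.095 for Irf7. Low levels limit precision: the median half-width of the deposited interval was 4.19% of the level for B2m, 19.6% for Cd74 and 53.5% for Usp18.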

Other observations

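Upstream of the interferon response, 0 of 9 receptor and kinase genes tested were called by limma. At an unadjusted p under 0.05, 1 was lower and 1 higher, against 11.4% and 4.11% of all genes. Ifnar2, a chain of the type I interferon receptor, averaged 9.58 ± 0.0439 FPKM in KO and 12.1 ± 1.55 FPKM in WT (SD, n = 2 each), a difference of -0.31 (SE 0.090, limma adjusted p = 0.238). Ifngr2, a chain of the interferon gamma receptor, averaged 23.8 ± 0.337 FPKM in KO and 20.7 ± 1.89 FPKM in WT, a difference of 0.19 (SE 0.070, limma adjusted p = 0.294). Jak1, a kinase used by both receptors, averaged 38.2 ± 1.72 FPKM in KO and 35.96 ± 0.218 FPKM in WT, a difference of 0.083 (SE 0.046, limma adjusted p = 0.454).

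Next came 6 tested genes: the interferon regulatory factors Irf2, Irf3 and Irf5, and the Irf2-binding proteins Irf2bp1, Irf2bp2 and Irf2bpl. Of them 0 were called and 1 was lower at an unadjusted p under 0.05, against 11.4% of all genes. It was Irf3, which acts below nucleic acid sensors, at 10.01 ± 0.979 FPKM in KO and 12.9 ± 0.679 FPKM in WT, a difference of -0.33 (SE 0.081, limma adjusted p = 0.186). Of 6 sensor genes tested 0 were called and 2 were lower at that level, against 11.4% of all genes. Mavs, the adaptor of RNA sensors, averaged 2.81 ± 0.0751 FPKM in KO and 3.66 ± 0.283 FPKM in WT, a difference of -0.29 (SE 0.078, limma adjusted p = 0.216). Eif2ak2, the RNA-activated kinase PKR, averaged 1.39 ± 0.0341 FPKM in KO and 1.75 ± 0.0763 FPKM in WT, a difference of -0.20 (SE 0.077, limma adjusted p = 0.3197). Ddx58, the sensor RIG-I, averaged 1.33 ± 0.0115 FPKM in KO and 1.55 ± 0.000902 FPKM in WT, a difference of -0.13 (SE 0.075, limma adjusted p = 0.465).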
